A study of Mus musculus with 30 samples.

Results

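The proteasome genes described here are the rows of a table of transcript levels whose symbol is Psma, Psmb, Psmc, Psmd, Psme, Psmf or Psmg followed by a number, without Psmb8, Psmb9 and Psmb10, the catalytic subunits of the immunoproteasome. The rule took 45 of 47643 rows, with 8 genes in the class Psma, 8 in Psmb, 6 in Psmc, 14 in Psmd, 4 in Psme, 1 in Psmf and 4 in Psmg. RNA came from tibialis anterior, a fast limb muscle that lifts the foot, of male mice of the strain C57BL/6J, in 30 libraries of 8 groups that form 4 experiments. Muscle at 24 months of age (n = 3) was compared with muscle at 6 months (n = 3), and muscle after treatment with dexamethasone, a synthetic glucocorticoid that causes muscle wasting, with its own control (n = 4 each). LLC cancer, an abbreviation commonly used for Lewis lung carcinoma cells grown in mice, was compared with a separate control (n = 4 each). Muscle with Cyr61 siRNAs was compared with muscle with NT siRNAs (n = 4 each), where Cyr61 encodes a secreted matrix protein. The labels spell out neither abbreviation, and they give no dose, duration, tumour size or way of delivering the siRNAs, and no age for the 24 libraries outside the age experiment. They call the samples biological replicates without saying how many mice each came from, so the p-values measure the spread between these samples. The series title asks which molecular changes of muscle wasting depend on the stimulus.

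The proteasome is the large protease that degrades proteins tagged with ubiquitin, and in muscle it takes part in the loss of contractile protein during wasting. Its barrel-shaped core particle is built of alpha subunits (Psma genes) and beta subunits (Psmb genes), of which Psmb5, Psmb6 and Psmb7 carry the active sites. A regulatory particle caps the core: its ATPases (Psmc genes) unfold the substrate, and its other subunits (Psmd genes) bind ubiquitin and remove it. Other caps are the activators Psme1 with Psme2, Psme3 and Psme4. Psmf1 was described as an inhibitor of the core, and Psmg1 to Psmg4 are chaperones that assemble it.

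Levels are given as rescaled TPM, transcript abundances per unit length made to sum to 1000000 over all genes other than the 37 mitochondrially encoded rows. Those rows took 34.0 to 60.4% of TPM, with 37.9 ± 3.17% (SD, n = 4) after dexamethasone and 48.7 ± 2.09% (n = 4) in its control. Differences are log2(rescaled TPM + 1), tested by limma across all genes, and a gene is called where its p, adjusted by Benjamini-Hochberg over all genes, is under 0.05. The depth was estimated at 30.4e6 to 61.8e6 reads per library, and the 43 genes that passed the filter on low values had at least 76.1 estimated reads in any library. All 12 markers of muscle fibre were present, with summed levels of 203515 to 286340 in the 30 libraries. A few libraries stood apart. LLC 3 had the highest mitochondrial share (60.4%), and dexamethasone 2 the lowest (34.0%) together with a low sum of core genes. NT siRNA 4 and Cyr61 siRNA 4 had low Psmd sums, at 1493 and 1678 rescaled TPM where the other libraries of their groups had 1764 to 1810 and 1999 to 2055. Cyr61 itself was at 117, 124, 129 and 86.0 with NT siRNAs and 68.6, 109, 79.3 and 50.4 with Cyr61 siRNAs, so the groups overlapped. Its mean was lower with Cyr61 siRNAs (76.8 ± 24.4, SD, n = 4) than with NT siRNAs (114 ± 19.4, n = 4). Each library with Cyr61 siRNAs was below the NT siRNA library of the same number.

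Nearly all proteasome genes were well expressed in this muscle. Psmb5, the chymotrypsin-like active site, had the highest mean over the 30 libraries at 427 rescaled TPM, followed by the ATPase Psmc5 (314), Psmb1 (314), Psma6 (314) and Psma2 (303), whose ranges over the libraries overlapped. The core and ATPase classes had medians of 139 for Psma, 227 for Psmb and 236 for Psmc. The Psmd genes spread more widely around a median of 96.6, from Psmd7 at 292 down to Psmd5 at 9.59. Psmd5, Psmd9 (14.2) and Psmd10 (19.0), the lowest of that class, are chaperones that assemble the base of the regulatory particle rather than subunits of it. The core chaperones were low as well, with Psmg1 at 17.3, Psmg4 at 21.0, Psmg3 at 23.7 and Psmg2 at 54.5. Among the activators Psme4 stood at 115.5, Psme3 at 62.5, Psme1 at 44.4 and Psme2 at 42.8. Psmf1 was the lowest tested gene at 7.86.

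**Figure D1:**
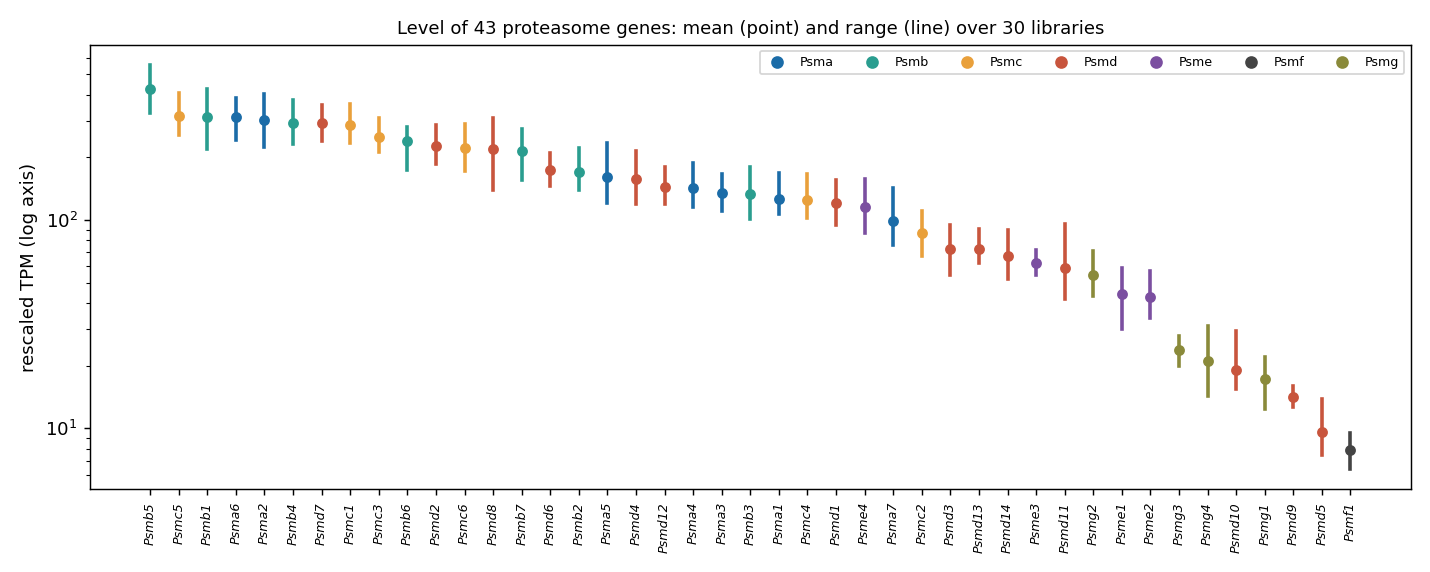
Rescaled TPM (log axis) of the 43 proteasome genes that passed the filter, ordered by their mean; points are means over the 30 libraries, lines run from the lowest to the highest library, and colours give the class. Psmb5 stands at the top at 427 and Psmf1 at the bottom at 7.86.

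The 2 genes that did not pass the filter are forms restricted to other tissues. Psma8, an alpha subunit of the testis, reached 0.476 rescaled TPM in its highest library, and Psmb11, the beta subunit of the thymus, 0.0217. Of the genes tested, Psmd9 varied least over the 30 libraries, with a coefficient of variation of 6.00%, and Psmd11, a lid subunit, varied most at 24.0%. Control groups differed between experiments. Psmd11 was at 59.7 to 76.9 with NT siRNAs, while the control libraries of dexamethasone lay at 45.8 to 50.3 and those of LLC at 44.9 to 49.1. The 6-month libraries lay at 41.7 to 57.6. All 45 genes summed to 6112 to 7017 with NT siRNAs where the 11 other control and 6-month libraries had 5360 to 6170. Each experiment had its own control, and groups were compared within it.

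After dexamethasone 4 subunits of the regulatory particle rose and the activator Psme1 fell, and the other 38 tested genes did not pass. The 4 were Psmd8, Psmd2, Psmd11 and Psmd4, with increases of 1.27- to 1.47-fold, and Psme1 fell to 0.647 of its control level. The background of this comparison was 5.56% of 12961 genes called higher and 2.96% called lower, so 4 of 43 genes higher (and 1 lower) is not far from it. Psmd8, a lid subunit, was at 179, 180, 205 and 155 rescaled TPM in the control libraries and at 294, 246, 275 and 239 after dexamethasone. Every treated library lay above every control, and the log2 difference was 0.55 (SE 0.11, adjusted p = 0.0143). Psmd2, a scaffold of the base that docks ubiquitin-carrying shuttle proteins, was at 189, 199, 203 and 186 in the controls and at 264, 271, 252 and 239 after dexamethasone. These groups did not overlap either, and the difference was 0.40 (SE 0.083, adjusted p = 0.0172). Psmd11, a lid subunit that helps hold the regulatory particle to the core, was at 47.1, 45.8, 50.3 and 47.7 against 57.4, 67.0, 61.1 and 63.3. All treated libraries were again the higher ones, with a difference of 0.37 (SE 0.085, adjusted p = 0.0247). Psmd4, a ubiquitin receptor, was at 134, 139, 137 and 125 against 186, 171, 159 and 162. Its groups lay apart, with a difference of 0.34 (SE 0.086, adjusted p = 0.0377).

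These 4 calls depended on the scaling and on single libraries. The median gene differed by 0.10 between the groups, and relative to it Psmd8 was 0.45, Psmd2 0.30, Psmd11 0.28 and Psmd4 0.24 higher. After median-of-ratios scaling, which takes that shift off, 0 of the 43 genes were called higher (adjusted p = 0.0904, 0.125, 0.0589 and 0.280 for the 4 in that order), and over all genes 721 higher and 384 lower became 562 higher and 628 lower. Without control 4 the 4 genes had adjusted p of 0.0515 to 0.138, and only Psmd8 kept its call without control 1 or control 2 (adjusted p = 0.0448 and 0.0492), while Psmd4 was also lost without control 3 (adjusted p = 0.0821). Without dexamethasone 4, Psmd8 and Psmd2 kept theirs, and without dexamethasone 2 all 4 did, with Psma7 called as well.

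**Figure D2:**
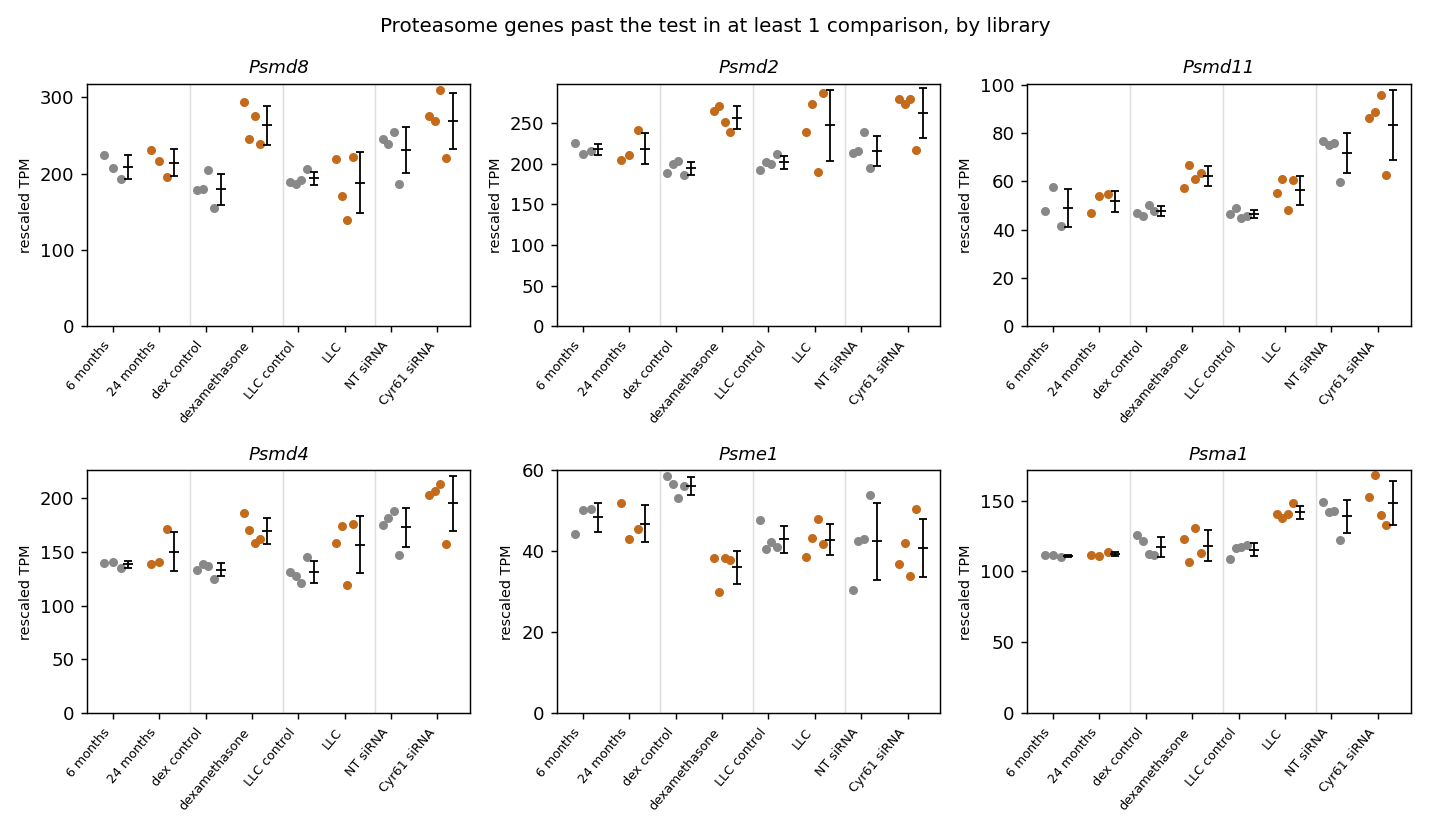
Rescaled TPM (each vertical axis from 0) of the 6 proteasome genes called in at least 1 comparison, in each of the 30 libraries; grey points are controls or 6 months, orange points the other group of each experiment, and bars show the mean ± SD. The 4 dexamethasone libraries lie above their controls in Psmd8, Psmd2, Psmd11 and Psmd4 and below them in Psme1, and the LLC libraries lie above their controls in Psma1.

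Promoter sequence of the 4 genes called higher after dexamethasone is shown to let them be compared. The table of RefSeq promoters (GRCm38.p6, 250 bases before to 50 after the start of each gene) had entries for 37 of the 45 genes. The 4 stretches are the 150 bases before the start, read 5′ to 3′ along the gene: Psmd8 at chr7:29180674-29180823 (minus strand), Psmd2 at chr16:20651502-20651651 (plus), Psmd11 at chr11:80428465-80428614 (plus) and Psmd4 at chr3:95042615-95042764 (minus). Capitals mark matches to the motifs named after the sequences.
Psmd8: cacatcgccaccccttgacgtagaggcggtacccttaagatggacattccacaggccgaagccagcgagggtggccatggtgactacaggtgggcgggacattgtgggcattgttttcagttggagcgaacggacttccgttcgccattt
Psmd2: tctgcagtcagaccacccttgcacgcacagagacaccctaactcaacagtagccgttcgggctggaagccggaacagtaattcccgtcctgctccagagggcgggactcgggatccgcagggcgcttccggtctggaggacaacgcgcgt
Psmd11: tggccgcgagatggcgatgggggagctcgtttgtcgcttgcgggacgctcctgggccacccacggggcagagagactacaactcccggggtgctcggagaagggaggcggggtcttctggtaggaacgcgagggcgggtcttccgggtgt
Psmd4: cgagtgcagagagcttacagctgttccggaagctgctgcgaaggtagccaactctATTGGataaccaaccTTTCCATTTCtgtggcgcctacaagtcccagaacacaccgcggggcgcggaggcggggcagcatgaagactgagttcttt

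Motifs were searched on both strands of the whole window. TGACNNNGC, the core of the antioxidant response element that NFE2L1 and NFE2L2 bind, was in none of the 4 windows of the genes that rose. It was in the windows of 6 of the 37 genes (16.2%), Psmb5, Psmb6, Psmc6, Psmd9, Psmd12 and Psme4, and in 14.0% of all 27025 promoters of the table. None of those 6 genes was called in any comparison. The matches of the active-site genes Psmb5 (chr14:54618024-54618052, minus strand) and Psmb6 (chr11:70525338-70525366, plus) are shown with the bases on either side, since this element is known from proteasome promoters.
Psmb5: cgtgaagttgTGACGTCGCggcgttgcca
Psmb6: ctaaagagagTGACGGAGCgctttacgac
CCAAT, the letters bound by the factor NF-Y, was in 13 of the 37 windows (35.1%) and in 41.1% of all promoters; in Psmd4 it lies on the opposite strand. The third motif, the core of the interferon-stimulated response element bound by interferon regulatory factors, was chosen after the data were seen, because Psme1 is an interferon-induced gene. It was in 5 of the 37 windows (13.5%), Psmb3, Psmd4, Psmd9, Psme1 and Psmg4, and in 3.99% of all promoters. It was in 0 of the 3 immunoproteasome promoters and not in that of Psme2, whose gene interferon gamma induces as well. In Psme1 it lies on the opposite strand, 10 bases after the start (chr14:55578493-55578522, plus strand of the gene).
Psme1: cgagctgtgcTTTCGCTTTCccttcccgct

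Psme1 was the proteasome gene that fell. It encodes 1 of the 2 subunits of the cap that interferon gamma induces and that works in antigen processing. Psme1 was at 58.6, 56.6, 53.2 and 56.0 rescaled TPM in the dexamethasone controls and at 38.3, 29.98, 38.4 and 37.9 after dexamethasone. All treated libraries lay below all controls, as they did for 5.89% of all genes, with dexamethasone 2 the lowest, and the log2 difference was −0.63 (SE 0.10, 95% CI −0.85 to −0.40, adjusted p = 0.00552). The call was kept under every scaling, filter and model tried and without any 1 library, with adjusted p from 0.00182 to 0.0238. Its partner Psme2 was at 56.8, 49.9, 49.2 and 45.2 against 51.0, 33.8, 53.8 and 42.0, and these groups overlapped (difference −0.17, 95% CI up to 0.15, adjusted p = 0.521). There were 103, 113, 108 and 124 Psme1 transcripts per 100 of Psme2 in the controls and 75.1, 88.6, 71.2 and 90.1 after dexamethasone. The 2 ranges of this ratio did not meet. How reads shared with related rows, such as pseudogenes of Psme2 and of several core subunits, were divided is not stated in these sources.

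The immunoproteasome subunits, which interferon gamma also induces, fell in the same libraries. Psmb8 was at 21.8, 15.6, 15.1 and 13.5 in the controls and at 7.87, 7.09, 9.77 and 7.02 after dexamethasone (log2 difference −0.96, adjusted p = 0.00598), and Psmb9 changed by −1.28 (adjusted p = 0.00304). Psmb10 changed by −0.68 (adjusted p = 0.0338), a call that was lost without control 1, 2 or 3 or dexamethasone 4 (adjusted p = 0.0701 to 0.0841), with no filter (0.0589) and with TPM as deposited (0.0510). Together the 3 made up 9.49, 6.77, 6.86 and 6.69% of the summed level of the constitutive subunits Psmb5 to Psmb7 in the controls and 3.46, 4.13, 4.14 and 3.94% after dexamethasone. The same share was 3.10 to 3.62% at 6 months, 3.30 to 3.89% in the LLC controls and 4.14, 3.84, 4.44 and 7.22% with NT siRNAs. The dexamethasone controls thus lay above the other control libraries except NT siRNA 4, which was above 3 of the 4. Psme1 itself was at 44.4 to 50.6 at 6 months, 40.7 to 47.8 in the LLC controls and 30.5 to 53.9 with NT siRNAs.

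Markers of immune and other cells moved in this comparison too. All 5 lymphocyte markers tested, of 13 listed, fell after dexamethasone. A low marker could pass the filter through the control libraries alone, so this count is not independent of the fall. The summed level of all 13 was 93.2 to 158 in the controls and 23.3 to 37.7 in the treated libraries. Of 15 macrophage markers 6 rose and 0 fell, with sums of 828 to 1540 against 2248 to 5536. Of 5 adipocyte markers tested 3 rose, with a median difference of 0.74. Of 10 endothelial markers 1 fell, and the sums of 494 to 534 in the controls and 339 to 465 after dexamethasone did not overlap. No marker of the lymphocyte or macrophage list was at 0 in all 30 libraries. The part of these cells in the fall of Psme1 and the immunoproteasome subunits was not tested. In whole muscle, fewer cells of a type and less RNA per cell cannot be told apart.

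**Figure D3:**
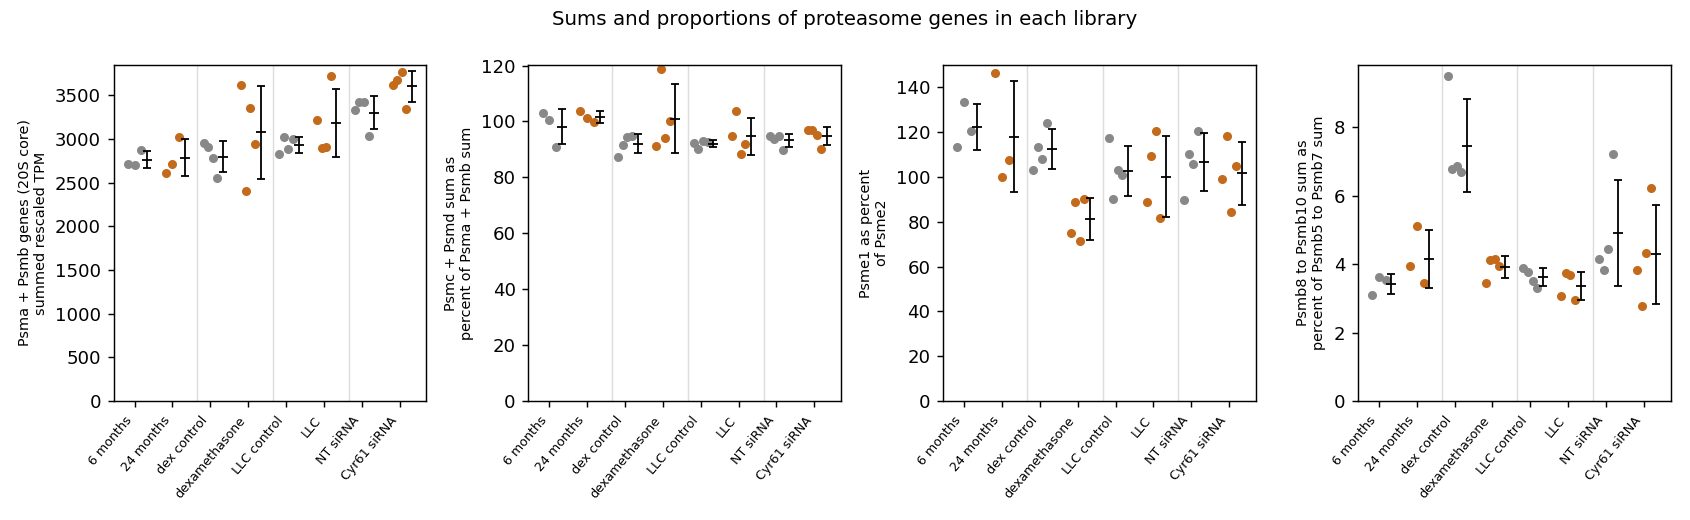
Summed rescaled TPM of the core genes (Psma and Psmb), the regulatory-particle genes (Psmc and Psmd) as percent of the core sum, Psme1 as percent of Psme2, and the immunoproteasome subunits as percent of Psmb5 to Psmb7, in each library; points are libraries (grey for controls or 6 months, orange for the other group), bars the mean ± SD. The dexamethasone libraries lie below their controls in the 2 panels on the right, and dexamethasone 2 is the lowest core sum at 2399.

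The active sites of the core did not pass the test. Psmb5 was at 441, 431, 418 and 379 in the controls and at 555, 327, 483 and 404 after dexamethasone, where the highest and the lowest library of all 8 were both treated ones. Its log2 difference was 0.06 (95% CI −0.28 to 0.40), and those of Psmb6, the caspase-like site, and Psmb7, the trypsin-like site, were 0.05 and 0.03 (adjusted p = 0.847, 0.864 and 0.926). Of the 7 Psmb genes tested 7 had a difference above 0, with a median of 0.06 and Psmb3 the highest at 0.21, and of the 7 Psma genes 7 were above 0, with a median of 0.19. Psma7 was the highest at 0.31 (adjusted p = 0.159) and Psma1 the lowest at 0.01. Dexamethasone 2 was low throughout the core: its Psma and Psmb genes summed to 2399 rescaled TPM, where the controls had 2548 to 2949 and the other treated libraries 2936 to 3619. Its Psmd sum of 1691 lay among those of the other treated libraries (1674 to 1847), which were all above the controls (1344 to 1481).

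The class with the highest median difference was Psmd, at 0.24, with 13 of 14 genes above 0 and 7 of 14 with treated libraries all above the controls. Over all genes tested 11.6% lay apart in that direction and 68.4% had a difference above 0. Psmd9 was the exception at −0.12 (adjusted p = 0.471). The 6 ATPases had a median of 0.19, from Psmc6 at 0.14 to Psmc2 at 0.29, and 0 passed the test. Over the 43 genes the median was 0.16, or 0.06 relative to the median gene, and 40 were above 0. Psme3, a nuclear activator, differed by 0.12 and Psme4, which caps the core in sperm and at damaged chromatin, by 0.16. Psmf1 differed by 0.05, and Psmg1, Psmg2, Psmg3 and Psmg4 by 0.07, 0.13, 0.18 and 0.02, of which 0 passed (adjusted p = 0.245 to 0.955). For 32 of the 43 genes the 95% CI of the difference lay within 0.5 of 0.

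**Figure D4:**
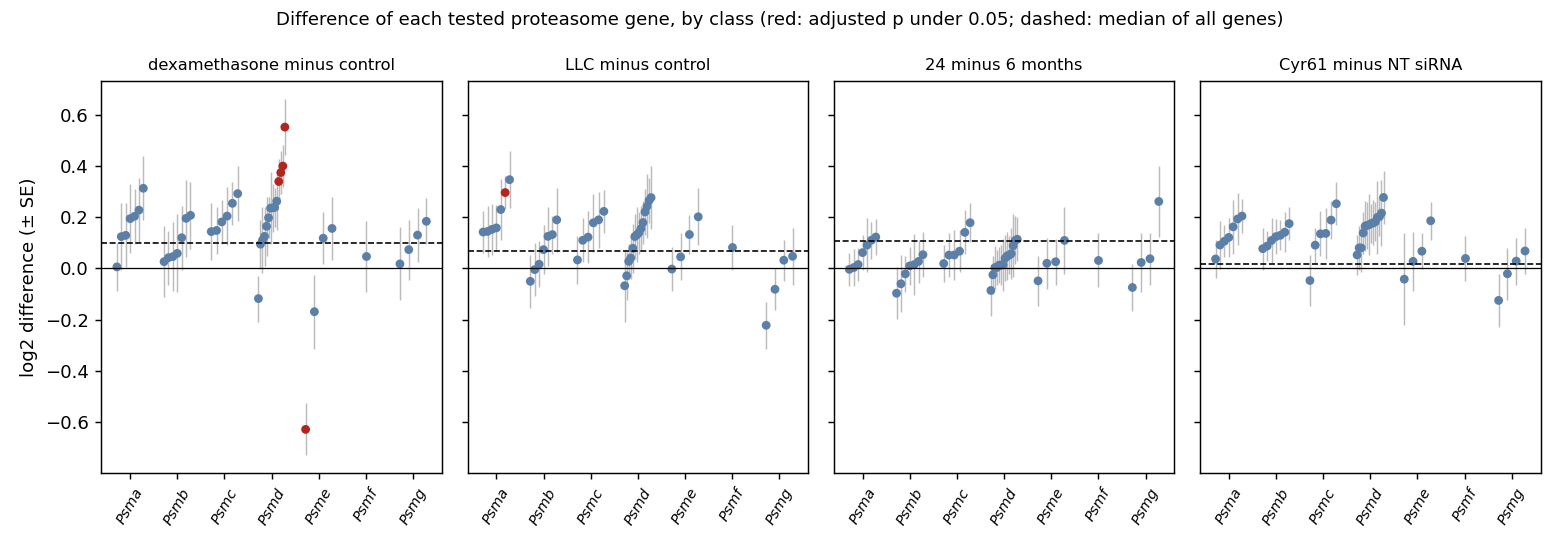
Log2 difference (± SE) of each of the 43 tested proteasome genes in the 4 comparisons, ordered within its class; red points have an adjusted p under 0.05, the solid line is 0 and the dashed line the median of all genes tested. Dexamethasone has 4 red points above the line, all Psmd, and Psme1 below it, and LLC has Psma1.

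Under LLC cancer 1 proteasome gene passed, the alpha subunit Psma1, and 42 did not. The background was 3.51% of 12011 genes called higher and 1.03% called lower. Psma1 was at 109, 116, 118 and 119 rescaled TPM in the control libraries and at 140, 138, 141 and 149 under LLC. The groups lay apart, and the difference was 0.30 (SE 0.066, adjusted p = 0.0379), or 0.23 relative to the median of all genes. The call rested on the scaling and on nearly every library. It was lost after median-of-ratios scaling (adjusted p = 0.126) and without any 1 of the 4 controls or of LLC 1, 2 or 4 (adjusted p = 0.0619 to 0.0972). With median-of-ratios scaling the calls over all genes went from 422 higher and 124 lower to 190 higher and 165 lower.

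LLC 3, the library with the highest mitochondrial share, lay with the controls in several genes. Psma5, the alpha subunit with the highest difference (0.35, adjusted p = 0.107), was at 124, 135, 130 and 143 in the controls and at 187, 169, 136 and 190 under LLC, with LLC 3 the third of these values. Psmd2 was at 192, 202, 200 and 212 against 239, 273, 189 and 287 (difference 0.28, adjusted p = 0.217). Without LLC 3, 5 genes were called higher: Psma1, Psma5 (0.45, adjusted p = 0.0214), Psmd2 (0.40, adjusted p = 0.0352), Psmd11 (0.33, adjusted p = 0.0369) and Psmd4 (0.37, adjusted p = 0.0452). In that fit 3.94% of all genes were called higher. Psmd8 was at 190, 187, 192 and 207 in the LLC controls and at 220, 171, 140 and 222 under LLC. Those values fell on both sides of the controls, and the difference was −0.07 (95% CI −0.38 to 0.25).

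Over the classes under LLC the median differences were 0.16 for Psma, 0.07 for Psmb, 0.15 for Psmc, 0.14 for Psmd, 0.09 for Psme and −0.02 for Psmg. Over the 43 genes the median was 0.13 (0.06 relative to the median gene), 36 were above 0 where 64.6% of all genes were, and with TPM as deposited the median turned to −0.01. The active sites were at −0.05 for Psmb5, 0.02 for Psmb6 and 0.07 for Psmb7, and Psmb1 was the highest of its class at 0.19. The ATPases ran from Psmc4 at 0.03 to Psmc6 at 0.22. LLC libraries lay wholly above the controls in Psma1, Psma6, Psmc6 and Psme3, 4 of 43 genes beside 12.3% of all genes, and wholly below them in Psmg4, beside 3.08% of all genes. Psmg4 was at 21.3, 17.7, 17.4 and 17.5 in the controls and at 16.9, 14.3, 14.9 and 16.7 under LLC (difference −0.22, adjusted p = 0.181). Psmg1, Psmg2 and Psmg3 differed by −0.08, 0.05 and 0.03, Psme2 by 0.05, Psme3 by 0.13, Psme4 by 0.20 and Psmf1 by 0.08 (adjusted p = 0.312 to 0.839). Markers of other cell types moved in these libraries. Red cell markers were higher in 3 of 5, with sums of 1066 to 1492 in the controls against 1810 to 15409 under LLC. Of 6 fibroblast markers 2 fell and 0 rose, and all 6 lay below 0 with a median difference of −1.06. Of 10 endothelial markers 3 rose, and of 3 lymphocyte markers tested 1 fell and 1 lay above 0. The summed level of the 13 lymphocyte markers listed was 87.2 to 125 in the controls and 35.1 to 73.7 under LLC, again without overlap. Of 14 macrophage and 4 adipocyte markers tested 0 passed and 0 lay above 0, with median differences of −0.41 and −0.45. The part of these cells in the differences was not tested.

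Psme1 differed in its response between dexamethasone and LLC. Under LLC it was at 38.6, 43.4, 48.0 and 41.7 against 47.8, 40.7, 42.2 and 41.2 in the controls, and these groups overlapped (difference −0.00, 95% CI −0.20 to 0.19). The LLC difference minus the dexamethasone difference was 0.63 (SE 0.13, adjusted p = 0.0120), the 1 of 43 genes called in this contrast, where 1.76% of all genes were called higher and 2.36% lower. With all libraries in 1 fit its adjusted p was 0.0508, and with TPM as deposited the contrast was 0.21 (adjusted p = 0.261). Psmd8 had the largest contrast the other way, −0.62, and did not pass (adjusted p = 0.0712). The age difference minus the dexamethasone difference was 0.58 for Psme1 (adjusted p = 0.0501), −0.51 for Psmd8 (adjusted p = 0.108) and −0.40 for Psmd2 (adjusted p = 0.0954), and 0 of 43 genes passed beside 1.43% of all genes higher and 0.647% lower. Both contrasts use the same dexamethasone and control libraries.

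At 24 months 0 of the 43 genes passed, as did 0% of all 11704 genes tested. At an unadjusted p under 0.05 there were 1629 genes, among them 1 proteasome gene, Psmc6, and the fit of all libraries called 57 genes higher and 1 lower, of which 0 were proteasome genes. The differences ran from −0.10 for Psmb5 to 0.26 for Psmg4. Psmb5 was at 390, 390 and 419 rescaled TPM at 6 months and at 336, 355 and 435 at 24 months, and Psmg4 at 17.7, 15.2 and 21.9 against 24.1, 19.8 and 21.9. Both pairs of groups overlapped, and the 95% CIs of the 43 genes lay between −0.33 and 0.58. The median was 0.03 where the median gene was 0.11 higher. Of the 43 genes 35 were above 0, where 74.6% of all genes were, and 8 were above the median gene. After median-of-ratios scaling the median of the 43 was −0.09. Psmc6, an ATPase, was at 193, 203 and 177 against 216, 209 and 224. Its groups lay apart, as did those of Psma2 and Psma5, 3 of 43 genes where 18.7% of all genes were apart in that direction, and 0 of 43 lay apart the other way, beside 2.92% (Psmc6 difference 0.18, adjusted p = 0.354). Psme1 and Psme2 differed by −0.05 and 0.02, Psme3 and Psme4 by 0.03 and 0.11, and Psmf1 by 0.03. Lymphocyte marker sums were 50.7 to 60.5 at 6 months and 101 to 204 at 24 months. Of the 13 markers 2 were tested, both lay above 0 and 0 passed.

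With Cyr61 siRNAs 0 of 43 genes passed, as did 0% of all 12245 genes tested. The groups overlapped in Cyr61 itself, although its mean was lower with Cyr61 siRNAs. At an unadjusted p under 0.05 there were 240 genes, among them 9 proteasome genes. With same-numbered libraries as blocks there were 691, among them 22 proteasome genes, and 0 passed after adjustment. Differences lay above 0 for 39 of 43 genes where 58.4% of all genes did, with a median of 0.13 and 0.11 relative to the median gene. Psmd2 was the highest at 0.28, at 214, 216, 238 and 194 with NT siRNAs and at 280, 273, 280 and 216 with Cyr61 siRNAs. The fourth library of either group was the lowest, and without both of them 0 genes passed and the median was 0.13 again. The ATPase Psmc4 was at 125, 126, 137 and 116 against 148, 166, 155 and 133 (difference 0.25, 95% CI 0.06 to 0.44), and these groups overlapped. In 5 of 43 genes (Psma2, Psmd6, Psmd10, Psmd14 and Psme4) the Cyr61 siRNA libraries lay wholly above the others, beside 1.23% of all genes, and in 0 wholly below them, beside 0.343%. All 43 adjusted p were 0.9999, and the 95% CIs ran from −0.45 to 0.52. The active sites Psmb5, Psmb6 and Psmb7 differed by 0.08, 0.09 and 0.13, Psme1 and Psme2 by −0.04 and 0.03, and Psmg4, the lowest, by −0.12. Other cell types varied widely between these libraries. Lymphocyte marker sums ran from 68.5 to 6929 with NT siRNAs and from 160 to 9394 with Cyr61 siRNAs. Red cell sums ran from 1096 to 8754 and from 1698 to 6775. The part of these cells in the differences was not tested.

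Of 49 other genes of the ubiquitin and proteasome pathway on a list, 48 matched a row and 47 passed the filter in each comparison. After dexamethasone 1 rose, beside 5.56% of all genes, and 3 fell, beside 2.96%, the 3 being Psmb8 to Psmb10. The gene that rose was Nfe2l2, a transcription factor of the antioxidant response, at 30.5, 35.7, 36.0 and 37.0 in the controls and 47.4, 57.5, 47.2 and 48.2 after dexamethasone (difference 0.51, adjusted p = 0.0144; 0.0513 without control 1). Nfe2l1, which drives proteasome genes when proteasomes are blocked, differed by 0.02 (adjusted p = 0.900), and Pomp, the maturation factor of the core, by 0.02. The muscle ubiquitin ligases Fbxo32 and Trim63 differed by 0.57 and 0.67 and did not pass (adjusted p = 0.129 and 0.140). Under LLC 3 rose and 0 fell, beside 3.51% and 1.03% of all genes. Nfe2l2 rose by 0.58 (adjusted p = 0.0200). Ddi2, the protease that activates Nfe2l1, rose by 0.54 (adjusted p = 0.0397) and Ube2g1, a ubiquitin-conjugating enzyme, by 0.40 (adjusted p = 0.0372). All of these calls were lost without any 1 of LLC controls 2, 3 or 4, and those of Ddi2 and Ube2g1 also without control 1 (adjusted p = 0.0573 to 0.102), without LLC 2 (0.0571 and 0.0819) and after median-of-ratios scaling (0.0591 and 0.0629). Without LLC 1, Nfe2l2 was at 0.0515 and Ddi2 at 0.0697. Fbxo32 and Trim63 were at 0.66 and 0.53 (adjusted p = 0.264 and 0.183). With age and with Cyr61 siRNAs 0 genes of the list passed in either direction.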

How the data were processed

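RNA of 30 muscle samples was sequenced from stranded mRNA libraries on a NovaSeq instrument, per the labels' protocols. Deposited values are TPM as the authors computed them, 1 column per library, each summing to 1000000; the build was mm10, per the submitters' processing notes. The aligner, counting tool, strand setting and annotation are not stated there. Columns were matched to samples by title, and 0 columns were unused.

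TPM was rescaled to 1000000 without the 37 rows starting mt-. Genes reaching 1 in a number of libraries no smaller than the smaller group were tested on log2(value + 1), a pseudocount of 1, which understates changes of low genes. limma 3.58.1 (R 4.3.3) with a variance trend fitted each pair of groups, two-sided, with Benjamini-Hochberg adjustment over all genes tested; 2 interaction contrasts compared responses. Reads were estimated from the steps of low TPM values and GENCODE M21 exon lengths; 75.5 to 78.9% of values below 200 reads came out whole within 0.05 read, so depths are approximate. Counting error alone is covered by them.

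Genes were named by a rule: the active sites, Psme, Psmf and Psmg genes always, the highest and lowest of each other class, and called genes. The members and lists were chosen with earlier results of these data known. Alternatives were other scalings, pseudocounts, filters, variance models, a replicate block and leaving out each library; leaving out both siRNA libraries numbered 4 was chosen after seeing the data. The fitting script was checked on simulated data. Tables were read with pandas 2.3.3 under Python 3.11.15, and figures drawn with matplotlib 3.10.9.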

Additional observations from a re-analysis of the deposited data

Results flagged for a closer look

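In 168 groups of 4 values (class sums, proportions and genes described here) the highest or lowest library was compared with the others of its group, and in 12 its gap to the nearest exceeded Dixon's 95% critical value, which chance passes in about 1 of 20 groups. Cyr61 siRNA 4 held 5 of the 12. Its Psmd sum was 1678 (others 1999 to 2055), its Psmc and Psmd sum 3015 (3497 to 3584) and Psmd2 216 (273 to 280) rescaled TPM. Its Psme1 and Psme2 sum was 98.6 (74.2 to 77.7), and this sum was 7.16% of the Psma sum (4.74 to 4.84%). Such values share genes, as the Psmc and Psmd sum holds the Psmd sum, which holds Psmd2. The 12 are therefore not independent. NT siRNA 4 held 3, with a Psmd sum of 1493 (1764 to 1810), Psmd11 at 59.7 (74.9 to 76.9) and Psma5 at 156 (195 to 197). In LLC control 2 the Psmc and Psmd sum was 90.3% of the Psma and Psmb sum (92.5 to 92.9%), and Psme2 was at 45.2 (40.8 to 41.1). In dexamethasone control 1 the immunoproteasome subunits were at 9.49% of Psmb5 to Psmb7 (6.69 to 6.86%). Psme1 in dexamethasone 2 was at 29.98 (37.9 to 38.4).

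The response differed between experiments by the interaction test in 5 cases. The LLC difference minus the dexamethasone difference was 0.63 for Psme1 (adjusted p = 0.0120), 1.00 for Psmb8 (adjusted p = 0.0126) and 1.14 for Psmb9 (adjusted p = 0.00809). The age difference minus the dexamethasone difference was 1.42 for Psmb8 (adjusted p = 0.0142) and 1.71 for Psmb9 (adjusted p = 0.00402). Psmb8 lost the first call with all libraries in 1 fit (adjusted p = 0.0924) and with TPM as deposited (0.0563), and the second without the library old 2.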

How the results depend on the processing

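The fall of Psme1 after dexamethasone was the 1 call of a proteasome gene kept under every alternative run. Called genes are counted here out of 43. After dexamethasone, 4 higher became 36 with TPM as deposited (35.9% of all genes in that fit) and 6 with all libraries in 1 fit (1236 genes in all, 9.54%). The count was 3 without the top 20 genes (4.71%), 2 with quantile normalization (4.59%) and 0 with median-of-ratios scaling (4.34%). With 1 library left out it was 0 to 5 (0 without control 4, beside 2.19%, and 5 without dexamethasone 2, beside 5.82%). Under LLC, 1 higher became 0 with TPM as deposited, median-of-ratios scaling, quantile normalization, without the top 20 genes and with the replicate block, and 0 to 5 when 1 library was left out (5 without LLC 3, otherwise 0). For LLC minus dexamethasone, 1 higher became 0 with TPM as deposited and with all libraries in 1 fit; 0 lower became 9 with TPM as deposited (20.9% of all genes in that fit) and 1 (Psmd8) with the replicate block, and 0 to 1 with 1 library left out (Psmd8 without LLC 1 or LLC 4). For age minus dexamethasone, 0 lower became 1 (Psmd8) with TPM as deposited and with the replicate block, and 0 higher became 1 (Psme1) without the top 20 genes and with robust variances, and 0 to 1 with 1 library left out (without dexamethasone 2). The cause of these changes was not tested. With TPM as deposited 4290 genes in all were called higher and 180 lower after dexamethasone, and 32 and 96 under LLC; at 24 months 16 and 2 were called so, 57 and 1 with all libraries in 1 fit and 9 higher with robust variances. No comparison had every same-numbered pair of libraries correlated above 0.1 (lowest 0.0229 for dexamethasone, 0.0397 for LLC, 0.0435 for age, 0.0303 for siRNA). The siRNA pairs numbered 1, 2 and 3 correlated at 0.419, 0.264 and 0.322. Dexamethasone pairs 1, 3 and 4 did so at 0.342, 0.313 and 0.467. Not every library correlated best with its own number. Whether same-numbered libraries were paired cannot be told from these values, and the main fits left the number out. The block changed no other count of called proteasome genes. It took those at an unadjusted p under 0.05 with Cyr61 siRNAs from 9 to 22 (240 to 691 over all genes). Counts with Cyr61 siRNAs and with age stayed at 0 in all alternatives.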
